A study of Saccharomyces cerevisiae with 6 samples.

Results

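Strain 62B is a Saccharomyces cerevisiae strain that was adapted to galactose by evolution in the laboratory and was then profiled while it grew on glucose. The members are the 2 arrays of 62B and the 2 arrays of the unevolved reference strain, chosen by their labels, which makes 4 of the 6 arrays of the series. The other arrays are 1 each of the evolved strains 62A and 62C, and they enter only where 62B is set against them. All strains share the CEN.PK113-7D background, a laboratory strain used for physiology. The 62B, 62A and 62C cultures are labelled as evolved on galactose, and the reference cultures as the unevolved wild type. Every culture was an aerobic batch in a fermenter held at pH 5.0 on minimal medium with glucose, sampled in mid exponential phase. 62B is a single strain, and the labels name no mutation in it. Whether the arrays of a pair were grown as separate cultures is not stated, so p-values measure only the spread between these arrays, which may be technical.

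On glucose, budding yeast ferments, represses the galactose pathway and the respiratory genes, and keeps protein kinase A active through the Ras and adenylate cyclase pathway. High protein kinase A activity holds back the transcription factors Msn2 and Msn4, which otherwise switch on stress and reserve carbohydrate genes. Haploid a cells make a-factor and carry the receptor for alpha-factor, whose G protein and MAP kinase cascade induces genes for cell fusion through the transcription factor Ste12.

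Arrays of the same strain were close to each other. Over the 5449 tested genes, log2 values differed with an SD of 0.0695 within the 62B pair and 0.0956 within the reference pair, against 0.254 to 0.278 between a 62B and a reference array. No gene differed by over 2-fold within either pair (0 genes), and 40 to 59 genes did between a 62B and a reference array. Between 96.8% and 97.1% of the genes lay above background, taken as the 95th percentile of the probe sets for another yeast species (5.07 on the log2 scale). The mean 3' minus 5' difference of 8 control genes, a measure of RNA integrity, was 2.01 and 2.05 on the 62B arrays, against 1.90 and 1.84 on the reference arrays. Its part in the results was not tested.

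In 62B, 1094 genes were higher and 1161 lower than in the reference, which is 20.1% and 21.3%, or 41.4% together, of the genes tested (limma, Benjamini-Hochberg adjusted p under 0.05). Most of these differences were small. Of the called genes 87.8% changed by less than 0.5 on the log2 scale, and 157 rose and 118 fell by at least that much. By at least 2-fold, 19 genes (0.349%) rose and 22 (0.404%) fell. The median change of all genes was −0.0104, with 5th and 95th percentiles of −0.35 and 0.39. Without the first 62B array 684 genes rose and 596 fell, and without the second 589 rose and 624 fell, while without the first reference array 29 genes in place of 19 rose by at least 2-fold. When a change beyond 0.25 was demanded in the test itself (limma treat), 210 genes rose and 172 fell.

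**Figure D1:**
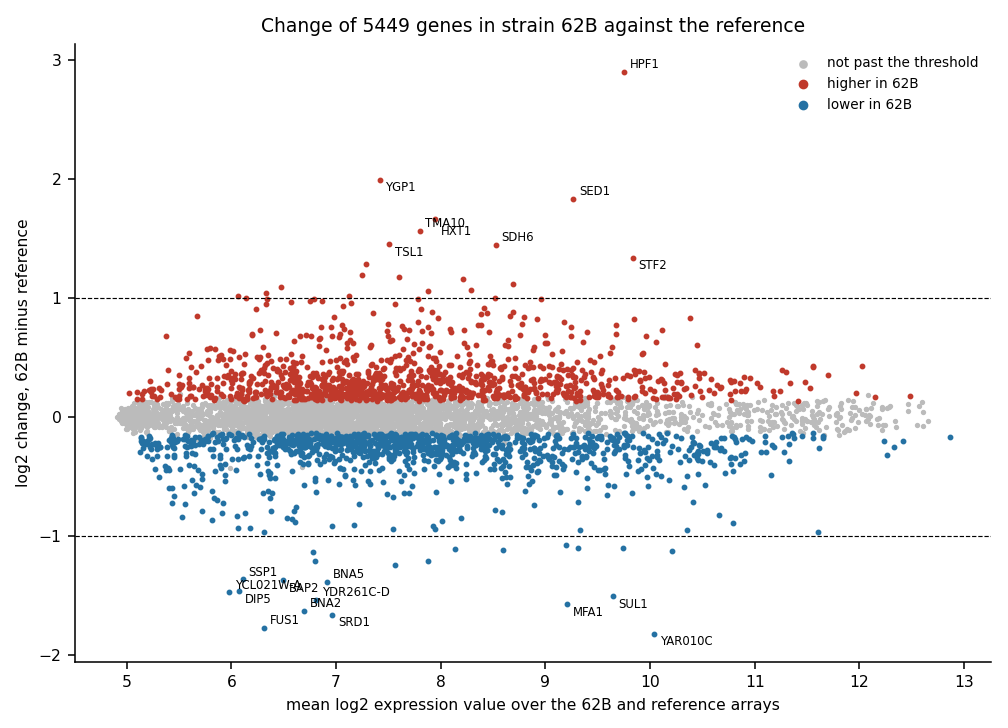
Log2 change of each tested gene in 62B against the reference (vertical axis) by its mean log2 expression value over the 4 arrays (horizontal axis), in red where higher and blue where lower in 62B. Dashed lines mark 2-fold, which 19 genes passed upward and 22 downward, with HPF1 furthest up at 2.90.

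The genes that rose most coded for cell wall and secreted proteins, a glucose transporter and proteins of reserve carbohydrate and energy metabolism. HPF1 (YOL155C), a mannoprotein of the cell wall, had log2 values of 11.27 and 11.13 on the 62B arrays, 9.25 on the 62A array and 8.85 on the 62C array, against 8.32 and 8.28 on the reference arrays. Both 62B arrays stood above every other array of the series. HPF1 was 7.46-fold higher in 62B than in the reference (log2 change 2.90 ± 0.06, SE of the fit, 2 arrays each, limma adjusted p = 8.1e-09). Arrays of 62B and the reference did not overlap for 72.3% of all genes, so lack of overlap alone does not mark a gene out.

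YGP1 (YNL160W), a secreted glycoprotein induced when nutrients run short, had 8.44 and 8.38 in 62B, against 6.56 and 6.28 in the reference. The groups were separate, and the change was 1.99 ± 0.08 (3.98-fold, limma adjusted p = 4.7e-07). SED1 (YDR077W), a structural glycoprotein of the wall, had 10.20 and 10.17 in 62B, against 8.39 and 8.31 in the reference (1.83 ± 0.05, limma adjusted p = 7.6e-08). HXT1 (YHR094C), the low-affinity glucose transporter that high glucose induces, had 8.87 and 8.68 in 62B, with 6.60 in 62A and 6.04 in 62C, against 6.94 and 7.28 in the reference. Thus HXT1 stood above the reference in 62B and below it on the 62A and 62C arrays, and its change in 62B was 1.66 ± 0.10 (limma adjusted p = 4.7e-06).

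The other large rises had limma adjusted p between 2e-07 and 0.0005. TMA10 rose by 1.56 ± 0.13, the trehalose synthase subunit TSL1 by 1.45 ± 0.06, the succinate dehydrogenase assembly factor SDH6 by 1.45 ± 0.05 and STF2, which acts on the ATP synthase, by 1.34 ± 0.08. ATF2, an alcohol acetyltransferase that also acetylates sterols, rose by 1.29 ± 0.05. It had 7.96 and 7.90 in 62B, with 6.01 in 62A and 5.85 in 62C, against 6.58 and 6.70 in the reference. The second isoform of cytochrome c, CYC7, rose by 1.19 ± 0.13, the hexokinase HXK1 by 1.18 ± 0.16, SCM4 by 1.15 ± 0.05 and the mitochondrial lactate dehydrogenase CYB2 by 1.12 ± 0.10. The quinone oxidoreductase ZTA1 (1.09 ± 0.05), the ceramidase YPC1 (1.06 ± 0.06) and the mitochondrial pyruvate carrier subunit MPC3 (1.06 ± 0.05) completed the 16 largest rises.

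The genes that fell most included genes for mating functions, NAD synthesis and nutrient permeases, and reading frames listed here under systematic names. FUS1 (YCL027W), a membrane protein needed for cell fusion in mating, had 5.50 and 5.35 in 62B, with 7.18 in 62A and 7.10 in 62C, against 7.22 and 7.18 in the reference. Only the 62B arrays were low, and FUS1 was 3.43-fold lower in 62B (log2 change −1.78 ± 0.06, limma adjusted p = 2e-07). SRD1 (YCR018C) had 6.09 and 6.17 in 62B, against 7.66 and 7.93 in the reference (−1.66 ± 0.08, limma adjusted p = 1.2e-06).

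SUL1 (YBR294W), a high-affinity sulfate permease, fell by 1.51 ± 0.06 on the log2 scale. DIP5 (YPL265W), a permease for acidic amino acids, had a change of −1.47 ± 0.07, and BAP2 (YBR068C), a permease for branched-chain amino acids, one of −1.38 ± 0.05. SSP1 (YHR184W), known from spore formation, had 5.39 and 5.45 in 62B, with 6.99 in 62A and 7.05 in 62C, against 6.77 and 6.81 in the reference. It was low on the 62B arrays alone, with a change of −1.37 ± 0.05. GSC2 (YGR032W), the alternative subunit of glucan synthase, had a change of −1.24 ± 0.05 and ENB1 (YOL158C), a transporter of iron-bound enterobactin, of −1.21 ± 0.20.

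Reading frames YAR010C (−1.82 ± 0.07), YDR261C-D (−1.54 ± 0.22) and YAR009C (−1.22 ± 0.13), and IMD2 (−1.14 ± 0.06), an IMP dehydrogenase, have probe sets that can hybridise to related sequences, so their values can include those relatives. For YAR010C the log2 values were 9.11 and 9.15 in 62B, with 10.39 in 62A and 10.69 in 62C, against 10.86 and 11.05 in the reference. All 4 arrays of the other strains lay above the 62B arrays. YCL021W-A had a change of −1.48 ± 0.06. Limma adjusted p over SRD1, the permeases, SSP1, GSC2, ENB1 and these reading frames was at most 0.0012. Of the 22 genes that fell by at least 2-fold, 6 had probe sets of that kind, against 0 of the 19 that rose.

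**Figure D2:**
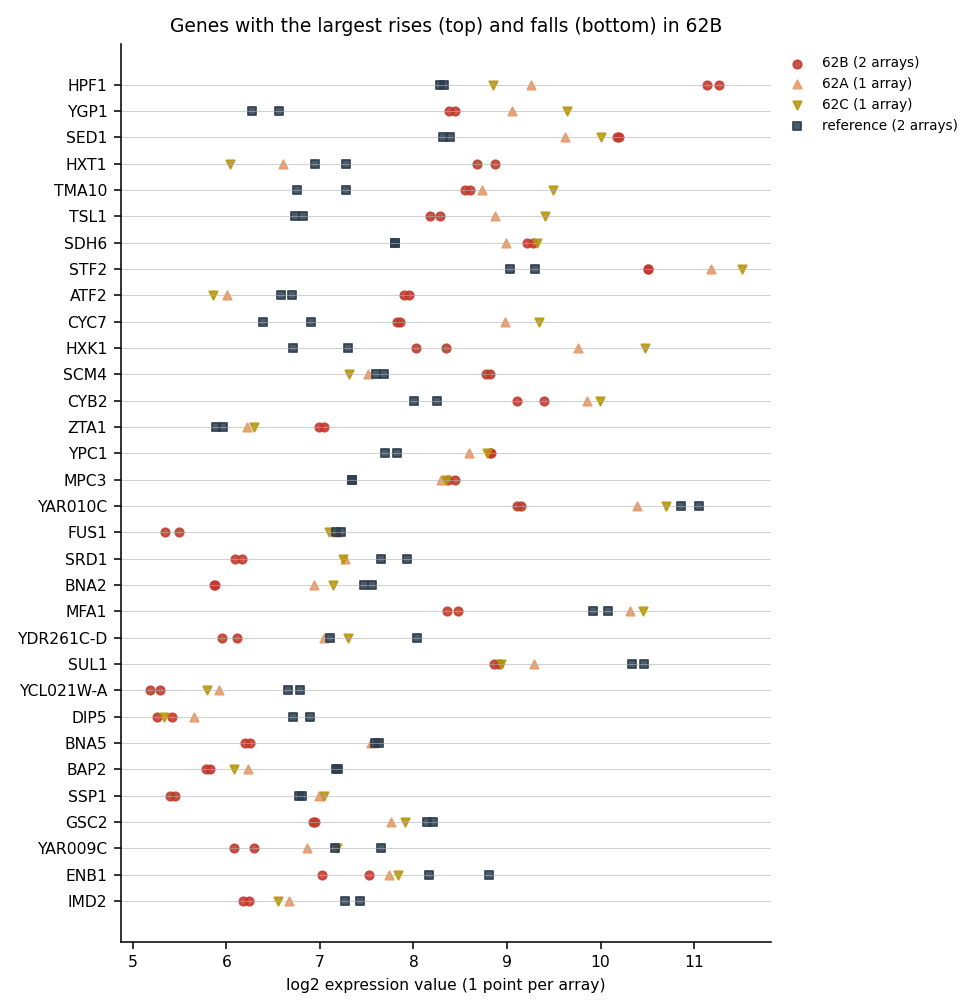
Log2 expression value on each array (horizontal axis, 1 point per array) of the 16 genes with the largest rise and the 16 with the largest fall in 62B. Red circles are 62B, orange and yellow triangles 62A and 62C, and dark squares the reference; for FUS1 and SSP1 the 62A and 62C arrays lie beside the reference arrays.

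Mating genes were lower in 62B in each of 3 lists, and none of those specific to a cells rose. Of 7 a-specific genes 6 fell and 0 rose (median change −0.50), of 18 genes of the pheromone G protein, MAP kinase cascade and its haploid regulators 9 fell and 0 rose (median −0.16), and of 21 genes of cell fusion 10 fell and 1 rose (median −0.14). Both arrays of either strain had the a-specific genes MFA1, STE2, STE6, BAR1 and AGA2 at 7.50 or more, well above background. The a-specific ASG7 was lower, at 5.93 and 6.07 in 62B, against 6.02 and 6.04 in the reference. MF(ALPHA)1, which codes for alpha-factor in alpha cells, was at 5.11 and 5.09 in 62B, against 5.31 and 5.29 in the reference, close to background. MF(ALPHA)2 lay there too, at 5.04 and 5.10 in 62B, against 5.16 and 5.13 in the reference. The alpha-specific SAG1 was above background and above ASG7, at 6.55 and 6.61 in 62B, against 6.57 and 6.67 in the reference.

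Among the pheromones and their partners, MFA1 (YDR461W), which codes for a-factor, had 8.36 and 8.48 in 62B, with 10.31 in 62A and 10.46 in 62C, against 9.92 and 10.08 in the reference. It was low on both 62B arrays and slightly higher on the 62A and 62C arrays than on the reference arrays. The fall was 2.98-fold (log2 change −1.58 ± 0.06, limma adjusted p = 4.7e-07). The second a-factor gene MFA2 had a change of −0.41 ± 0.06, the a-factor exporter STE6 of −0.44 ± 0.05, the alpha-factor receptor STE2 of −0.50 ± 0.06 and the a-agglutinin subunit AGA2 of −0.87 ± 0.06. BAR1, the protease that degrades alpha-factor, had 8.04 and 8.04 in 62B, against 9.21 and 9.10 in the reference (−1.12 ± 0.05). ASG7 had a change of −0.03 ± 0.06 and did not pass.

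Among the signalling genes, the G protein beta subunit STE4 fell by 0.54 on the log2 scale, SST2, which switches the G protein off, by 0.79, and TEC1, a transcription factor that acts with Ste12 in filamentous growth, by 0.94. TEC1 had 7.06 and 7.08 in 62B, with 7.74 in 62A and 7.82 in 62C, against 7.999 and 8.028 in the reference. Among the fusion genes PRM5 (−0.94 ± 0.06) and the agglutinin anchor AGA1 (−0.64 ± 0.05) fell beside FUS1, and PRM10 rose by 0.15 ± 0.05, a call lost without either 62B array. Alpha-specific genes were not higher either: STE3, the a-factor receptor of alpha cells, had 5.08 and 5.14 in 62B, against 5.94 and 5.96 in the reference (−0.84 ± 0.05). Of 4 alpha-specific genes 2 fell and 0 rose, and the call of MF(ALPHA)1 was lost without either 62B array. Without a 62B array 6 a-specific, 7 or 8 signalling and 7 fusion genes passed downward.

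The pathway that makes NAD from tryptophan was lower in 62B. Of 15 genes of NAD synthesis and salvage 10 fell and 1 rose, with a median change of −0.38. BNA2 (YJR078W), the dioxygenase that opens the pathway, had 5.87 and 5.88 in 62B, with 6.93 in 62A and 7.14 in 62C, against 7.47 and 7.55 in the reference. The 62B arrays stood lowest and the change was −1.64 ± 0.05 (3.11-fold lower, limma adjusted p = 1.7e-07). BNA5 (YLR231C), the kynureninase, had 6.25 and 6.20 in 62B, with 7.54 in 62A and 7.61 in 62C, against 7.63 and 7.59 in the reference (−1.39 ± 0.05). BNA1, a dioxygenase of the pathway, fell by 0.95 on the log2 scale.

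BNA6, which makes nicotinic acid mononucleotide, had a change of −0.54, the nicotinic acid permease TNA1 of −0.72 and the nicotinamide riboside transporter NRT1 of −0.81, all past the threshold. These 3 genes were picked after their values were seen. PNC1, the nicotinamidase of the salvage route, went the other way, with 9.05 and 9.11 in 62B, against 8.34 and 8.13 in the reference (0.85 ± 0.07). PNC1 is also in the list of stress-induced genes. Relative to the other evolved strains, 8 of the 15 genes were lower in 62B than in both 62A and 62C and 1 was higher, where 6.24% and 7.98% of all genes were.

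Genes of the late sterol pathway were higher in 62B. Of 15 genes from squalene to ergosterol 12 rose and 0 fell, all 15 changes were above 0, and the median was 0.37. ERG3 (YLR056W), the sterol C-5 desaturase, had 10.83 and 10.76 in 62B, with 9.54 in 62A and 9.45 in 62C, against 9.99 and 9.93 in the reference. It was high in 62B and below the reference on the 62A and 62C arrays, and its change in 62B was 0.83 ± 0.05 (1.78-fold, limma adjusted p = 4.3e-06). The sterol desaturase ERG5 rose by 0.63 ± 0.05 and NCP1, the reductase that supplies electrons to the pathway's cytochromes P450, by 0.60 ± 0.06. The upstream mevalonate pathway lay near the shares of all genes, with 2 of 11 genes higher (18.2%) and 3 lower (27.3%), against 20.1% and 21.3%. HMG2, an isoform of HMG-CoA reductase, was at 0.33 ± 0.05 and the first enzyme ERG10 at −0.29 ± 0.05. All 15 genes of the late pathway were higher in 62B than in both 62A and 62C, where 7.98% of all genes were. The late pathway was not alone in this. Of the 11 mevalonate genes 6 were also higher than in both, as were 6 of 16 regulators, sterol uptake and hypoxic genes, and 0 of either list were lower.

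Of 16 regulators, sterol uptake and hypoxic genes 5 rose and 2 fell (3 and 2 rises without the first and the second 62B array), among them TIR3, a wall mannoprotein of cells short of oxygen (0.74 ± 0.06), and the sterol acyltransferase ARE2 (0.39 ± 0.06) upward and the sterol importer AUS1 (−0.32 ± 0.05) downward. Fatty acid and phospholipid genes went down more often than up, 12 of 25 against 3 (median −0.14), led by the acyl-CoA synthetase FAA4 (−0.78 ± 0.05). Without the first 62B array 4 fell, and without the second 2. Of 18 genes of peroxisomes and fatty acid oxidation 5 rose and 4 fell, near the shares of all genes (2 fell without either 62B array), with the peroxisomal ATP carrier ANT1 at 0.61 ± 0.05.

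**Figure D3:**
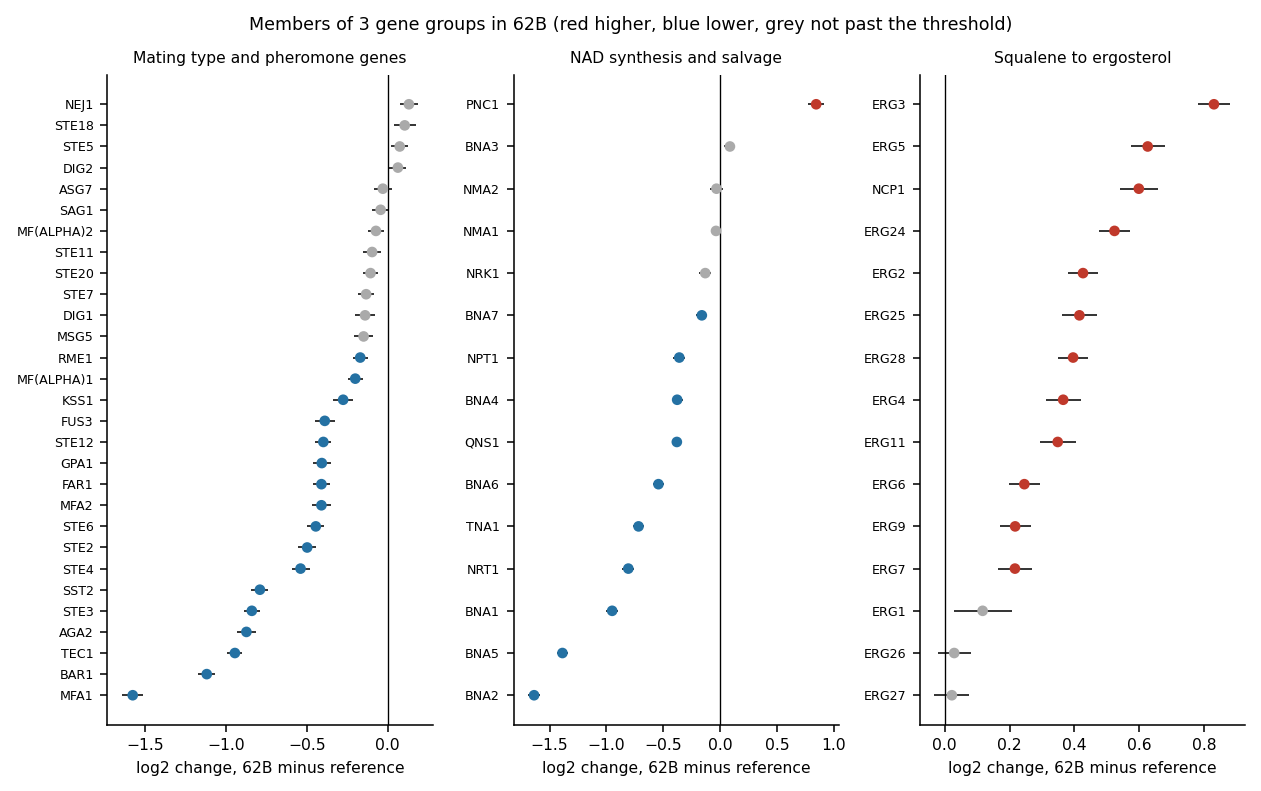
Log2 change in 62B against the reference (horizontal axis, bars show the standard error of the fit over 2 arrays each) for mating type and pheromone genes, NAD genes and the genes from squalene to ergosterol. MFA1 (−1.58), BNA2 (−1.64) and ERG3 (0.83) stand at the ends of their groups, and PNC1 lies opposite to the NAD genes that fell.

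Stress-induced genes were higher in 62B, by modest amounts. Of 30 genes 24 rose and 0 fell, with a median change of 0.43. Besides YGP1, TMA10 and CYC7, named above, the membrane-protecting protein HSP12 (YFL014W) had 9.06 and 9.60 in 62B, with 11.93 in 62A and 12.29 in 62C, against 8.70 and 8.32 in the reference. The 62B arrays lay between the reference arrays and the other evolved strains, with a change of 0.82 ± 0.16 against the reference (limma adjusted p = 0.0033). Of the 30 genes 23 were lower in 62B than in both 62A and 62C, and 0 were higher. Among all genes 6.24% were lower than in both and 7.98% higher.

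Reserve carbohydrate genes were higher as well. Of 14 glycogen genes 9 rose and 0 fell (median 0.31), and of 7 trehalose genes 5 rose and 0 fell (median 0.42). The glycogen phosphorylase GPH1 (YPR160W) had 6.40 and 6.68 in 62B, with 9.08 in 62A and 9.84 in 62C, against 6.03 and 5.66 in the reference (0.69 ± 0.12). The branching enzyme GLC3 rose by 0.67 ± 0.06, and the trehalose enzymes TPS2 and TPS1 by 0.57 ± 0.06 and 0.53 ± 0.05. In 62B, 8 of the glycogen and 4 of the trehalose genes were lower than in both other evolved strains, where 6.24% of all genes were.

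Of 23 chaperones and disaggregases 4 rose (17.4%) and 8 fell (34.8%), against 20.1% and 21.3% of all genes. The rises were thus below the share of all genes, and fewer fell without either 62B array. The disaggregase HSP104 (0.83 ± 0.09), the small chaperone HSP42 (0.87 ± 0.07) and SSA1 of the Hsp70 family (0.53 ± 0.09) were higher, while the Hsp90 cofactors AHA1 (−0.42 ± 0.05) and STI1 (−0.43 ± 0.05) and the Hsp40 YDJ1 (−0.44 ± 0.05) were lower. Of 23 antioxidant enzymes 9 rose and 5 fell (5 and 4 without either 62B array), with the mitochondrial enzymes PRX1 (0.71 ± 0.07) and SOD2 (0.70 ± 0.05) upward and the NADPH oxidoreductase OYE2 (−1.11 ± 0.05) downward. In the Ras and protein kinase A pathway 5 of 20 genes rose and 2 fell (median 0.03), and 3 rose and 1 fell without the second 62B array. With all arrays, this pathway lay near the share of all genes that rose (20.1%) and below the share that fell (21.3%), so it did not stand out. The catalytic subunit TPK2 (0.43 ± 0.05), the regulatory subunit BCY1 (0.41 ± 0.05) and the adenylate cyclase CYR1 (0.34 ± 0.05) rose, RAS1 fell by 0.46 on the log2 scale, and RAS2, with 8.61 and 8.60 in 62B against 8.64 and 8.70 in the reference, did not pass.

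GAL1, GAL2, GAL3, GAL7 and GAL10 had log2 values between 5.12 and 6.13 on the 62B arrays, against 5.23 to 5.76 on the reference arrays, where background was 5.07. GAL1, the galactokinase, had 5.62 and 6.13 in 62B, against 5.58 and 5.75 in the reference, and the arrays overlapped. GAL1 did not pass (limma adjusted p = 0.24), but did with the replicate number as a block (0.018) and without the first 62B array (0.0063). GAL2, GAL7 and GAL10, which import galactose and carry it on, had changes of −0.02, 0.06 and −0.10 and did not pass. The co-inducer GAL3 (−0.27 ± 0.05) and the repressor of the pathway GAL80 (−0.45 ± 0.05) fell. PGM2, the main phosphoglucomutase, which links the pathway to glycolysis, had 7.32 and 7.39 in 62B, with 8.53 in 62A and 9.06 in 62C, against 6.44 and 6.32 in the reference (0.98 ± 0.06). PGM1, the minor isoform, had 7.35 and 7.39 in 62B, against 7.29 and 7.45 in the reference, with no separation.

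Some hexose transporters moved in opposite directions, but the list as a whole did not stand out. Of 16 transporters and sensors 4 rose and 2 fell (median −0.005), and 2 rose without the second 62B array. With all arrays, the list lay near the share of all genes that rose (20.1%) and below the share that fell (21.3%). HXT1 rose, as described above, and HXT7, a high-affinity transporter whose probe set can also hybridise to relatives, had 9.13 and 9.29 in 62B, with 10.91 in 62A and 11.15 in 62C, against 8.70 and 8.05 in the reference (0.84 ± 0.16). HXT2, another high-affinity transporter, had 7.46 and 7.49 in 62B, with 8.37 in 62A and 8.70 in 62C, against 8.50 and 8.34 in the reference (−0.94 ± 0.06), so only the 62B arrays were low. Of 4 hexose kinases 3 rose, HXK1 (1.18 ± 0.16), GLK1 (0.87 ± 0.07) and EMI2 (0.32 ± 0.05), and HXK2, the main kinase on glucose, had a change of −0.23 ± 0.05, a call lost without either 62B array.

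Glycolytic genes were lower, with 11 of 15 down and 0 up (median −0.25). The phosphofructokinase subunit PFK1 had a change of −0.53 ± 0.05 and ENO1, an enolase, of −0.49 ± 0.05. TDH1, a glyceraldehyde-3-phosphate dehydrogenase, had 9.67 and 9.71 in 62B, with 11.29 in 62A and 11.71 in 62C, against 10.48 and 10.07 in the reference (−0.59 ± 0.11). Its 62B arrays were the lowest and its 62A and 62C arrays the highest of the series. Of 20 genes of pyruvate, ethanol and acetate metabolism 4 rose and 5 fell (2 and 4 without the second 62B array), with the mitochondrial aldehyde dehydrogenase ALD4 at 0.69 ± 0.05 and the alcohol dehydrogenase ADH5 at −0.85 ± 0.05.

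In glycerol metabolism, the phosphatase isoforms went opposite ways. GPP2 had 8.73 and 8.81 in 62B, against 8.02 and 7.98 in the reference (0.77 ± 0.05), while GPP1 had 10.41 and 10.27 in 62B, against 11.22 and 11.25 in the reference (−0.90 ± 0.06). Both differences were larger than the spread between arrays. In all 5 of 12 glycerol genes rose (41.7%) and 2 fell (16.7%), against 20.1% and 21.3% of all genes. In the pentose phosphate pathway 1 of 13 rose (7.7%) and 2 fell (15.4%), both below the shares of all genes. SOL4 (0.90 ± 0.07) rose, and the first enzyme ZWF1 (−0.51 ± 0.06) and the transaldolase TAL1 (−0.32 ± 0.05) fell.

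Of 8 genes of succinate dehydrogenase and its assembly 6 rose and 0 fell (median 0.26), led by SDH6 (YDR379C-A), which had 9.22 and 9.28 in 62B, against 7.80 and 7.80 in the reference. Of 11 genes of the cytochrome bc1 complex and cytochromes c 5 rose, and of 9 of cytochrome c oxidase 4 rose, among them COX5B, the isoform used at low oxygen (0.64 ± 0.05), and none fell in either list (0 genes). Of 17 genes of the ATP synthase and its regulators 7 rose and 2 fell (6 and 0 without either 62B array). The largest rises there belonged to the regulators STF2 (1.34 ± 0.08), STF1 (0.88 ± 0.09) and INH1 (0.38 ± 0.06). Without the first and the second 62B array 1 and 2 of the cytochrome bc1 list rose. Of 8 mitochondrial dehydrogenases 4 rose and 1 fell, and of 7 genes of the HAP complex and heme regulation 1 rose and 1 fell (0 and 2 after quantile normalization).

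The TCA cycle showed 3 rises (23.1%) and 5 falls (38.5%) among 13 genes, against 20.1% and 21.3% of all genes. KGD4, a subunit of the ketoglutarate dehydrogenase complex, rose by 0.42 ± 0.05, while both subunits of isocitrate dehydrogenase, IDH1 (−0.37 ± 0.05) and IDH2 (−0.46 ± 0.05), and the aconitase ACO1 (−0.38 ± 0.05) fell. Of 66 mitochondrial ribosomal proteins 17 rose and 15 fell (median 0.002), near the shares of all genes. Without the first 62B array 10 rose and 4 fell, and without the second 6 rose and 8 fell. Of 22 genes of mitochondrial import and folding 7 fell and 0 rose, but 2 fell without either 62B array.

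Genes of the growth machinery fell in some groups and hardly moved in others. Of 126 cytosolic ribosomal proteins 5 rose and 10 fell, below the shares of all genes, with a median of 0.02. Quantile normalization gave 13 rises and 15 falls there, and leaving out the first reference array 21 and 11, while 1 rose without either 62B array and 4 and 2 fell without the first and the second. Of 80 ribosome biogenesis genes 4 rose and 29 fell (median −0.12), led by RRP12 (−0.38 ± 0.05). Of 33 aminoacyl-tRNA synthetases and translation factors 22 fell and 0 rose (median −0.18), led by RPG1, a subunit of initiation factor eIF3 (−0.44 ± 0.05). Of 22 genes of RNA polymerases I and III 3 rose and 7 fell, with 2 and 3 falls without the first and the second 62B array and 14 without the first reference array. Without the first and the second 62B array 10 and 12 ribosome biogenesis genes fell, against 44 without the first reference array, and 12 synthetases and translation factors fell without either 62B array.

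The proteasome fell in 24 of 33 genes and rose in 0 (median −0.26), led by the core subunits PUP1 (−0.47 ± 0.05) and SCL1 (−0.45 ± 0.05) and the lid subunit RPN12 (−0.46 ± 0.05). Of 9 histone genes 5 rose and 0 fell, with HTA1 at 0.36 ± 0.05. Of 14 cyclins and Cdk genes 6 rose and 0 fell, among them the mitotic cyclin CLB1, which had 8.27 and 8.25 in 62B, against 7.47 and 7.64 in the reference (0.71 ± 0.06). Without either 62B array 1 histone gene rose, and 3 or 4 cyclin and Cdk genes did. The proteasome had 18 and 16 falls without the first and the second 62B array.

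Amino acid synthesis was lower across pathways. Genes fell in 8 of 12 cases for branched-chain amino acids, 5 of 9 for lysine, 6 of 7 for arginine, 6 of 7 for histidine, 9 of 13 for aromatic amino acids and 16 of 18 for the glutamate, aspartate and serine families, with medians from −0.37 to −0.21. One gene of these lists rose, the aromatic aminotransferase ARO9 (0.40 ± 0.05). ARO1, the enzyme of several steps of the shikimate route that leads to tryptophan, had 9.21 and 9.30 in 62B, against 9.86 and 9.98 in the reference (−0.66 ± 0.06). The asparagine synthetase ASN1 (−0.58 ± 0.05), the carbamoyl phosphate synthetase CPA1 (−0.58 ± 0.07) and HIS7 (−0.51 ± 0.06) were among the others that fell.

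In methionine and sulfur assimilation 15 of 26 genes fell and 1 rose, STR3 (0.49 ± 0.06), and 8 and 7 fell without the first and the second 62B array. Amino acid permeases were mixed, with 8 of 20 lower and 3 higher. The S-adenosylmethionine permease SAM3 had 9.14 and 9.12 in 62B, against 8.31 and 8.20 in the reference (0.88 ± 0.05), while DIP5, BAP2 and BAP3 (−0.81 ± 0.05), a relative of BAP2, fell. Genes under nitrogen catabolite repression passed near the shares of all genes, with 5 of 23 higher (21.7%) and 6 lower (26.1%), against 20.1% and 21.3%. Fewer were higher without the first 62B array. The ammonium permease MEP2 had 10.55 and 10.40 in 62B, with 9.77 in 62A and 9.17 in 62C, against 9.80 and 9.70 in the reference (0.73 ± 0.06). The proline oxidase PUT1 had a change of −0.86 ± 0.05.

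Nucleotide and one-carbon genes fell. Of 12 purine genes 8 were lower and 0 higher (median −0.32), led by ADE4, the first enzyme of the pathway (−0.58 ± 0.05). Of 12 one-carbon and glycine genes 9 fell and 1 rose (median −0.31). The glycine decarboxylase subunits GCV2 (−0.95 ± 0.06), GCV1 (−0.74 ± 0.06) and GCV3 (−0.59 ± 0.05) fell together, while AGX1, which makes glycine from glyoxylate, rose by 0.84 ± 0.06. In thiamine and vitamin B6 synthesis 8 of 17 genes fell and 0 rose, with SNZ1 at −0.88 ± 0.06. Of 14 genes of guanine nucleotide and pyrimidine synthesis 8 fell and 1 rose (median −0.17), and 5 fell without the second 62B array.

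Of 40 cell wall genes 11 rose (27.5%) and 5 fell (12.5%), against 20.1% and 21.3% of all genes. Their median change was 0.08, and fewer rose without either 62B array. HPF1, SED1 and the mannoprotein CWP1 (0.83 ± 0.07) rose, and the wall enzymes GSC2 and UTR2 (−0.71 ± 0.05) fell. Of 28 metal uptake genes 5 rose (17.9%, near the share of all genes) and 9 fell (32.1%). Without the second 62B array 2 rose and 4 fell, and without the first reference array 6 rose and 17 fell. The manganese transporter SMF1 had 9.00 and 9.03 in 62B, with 8.26 in 62A and 8.19 in 62C, against 8.07 and 7.96 in the reference (1.00 ± 0.05). FET3, the ferroxidase of iron uptake, had 9.15 and 8.36 in 62B, against 9.53 and 10.20 in the reference (−1.11 ± 0.24), and here each pair of arrays differed widely within itself.

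The remaining lists stand beside shares of 20.1% higher and 21.3% lower among all genes. Glucose sensing and repression, at 22.7% in each direction, lay near these. Phosphate genes rose in 5 and fell in 6 of 20 cases, with the phosphate transporter PHO89 at −0.67 ± 0.05, and multidrug and other transporters rose in 5 and fell in 8 of 24 cases, with the polyamine exporter TPO2 at 0.99 ± 0.06. Genes of glucose sensing and repression rose in 5 and fell in 5 of 22 cases. Without the first 62B array 1 phosphate, 3 transporter and 2 glucose sensing genes rose and 2, 7 and 2 fell. Without the second 3 of each of these lists rose and 3, 5 and 3 fell. Gluconeogenesis and the glyoxylate cycle had 4 rises (1 without the second 62B array) and 6 falls among 16 genes, and sucrose, maltose and other sugar use 2 rises and 4 falls among 11. In the methylcitrate cycle 1 of 3 genes fell and 0 rose.

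**Figure D4:**
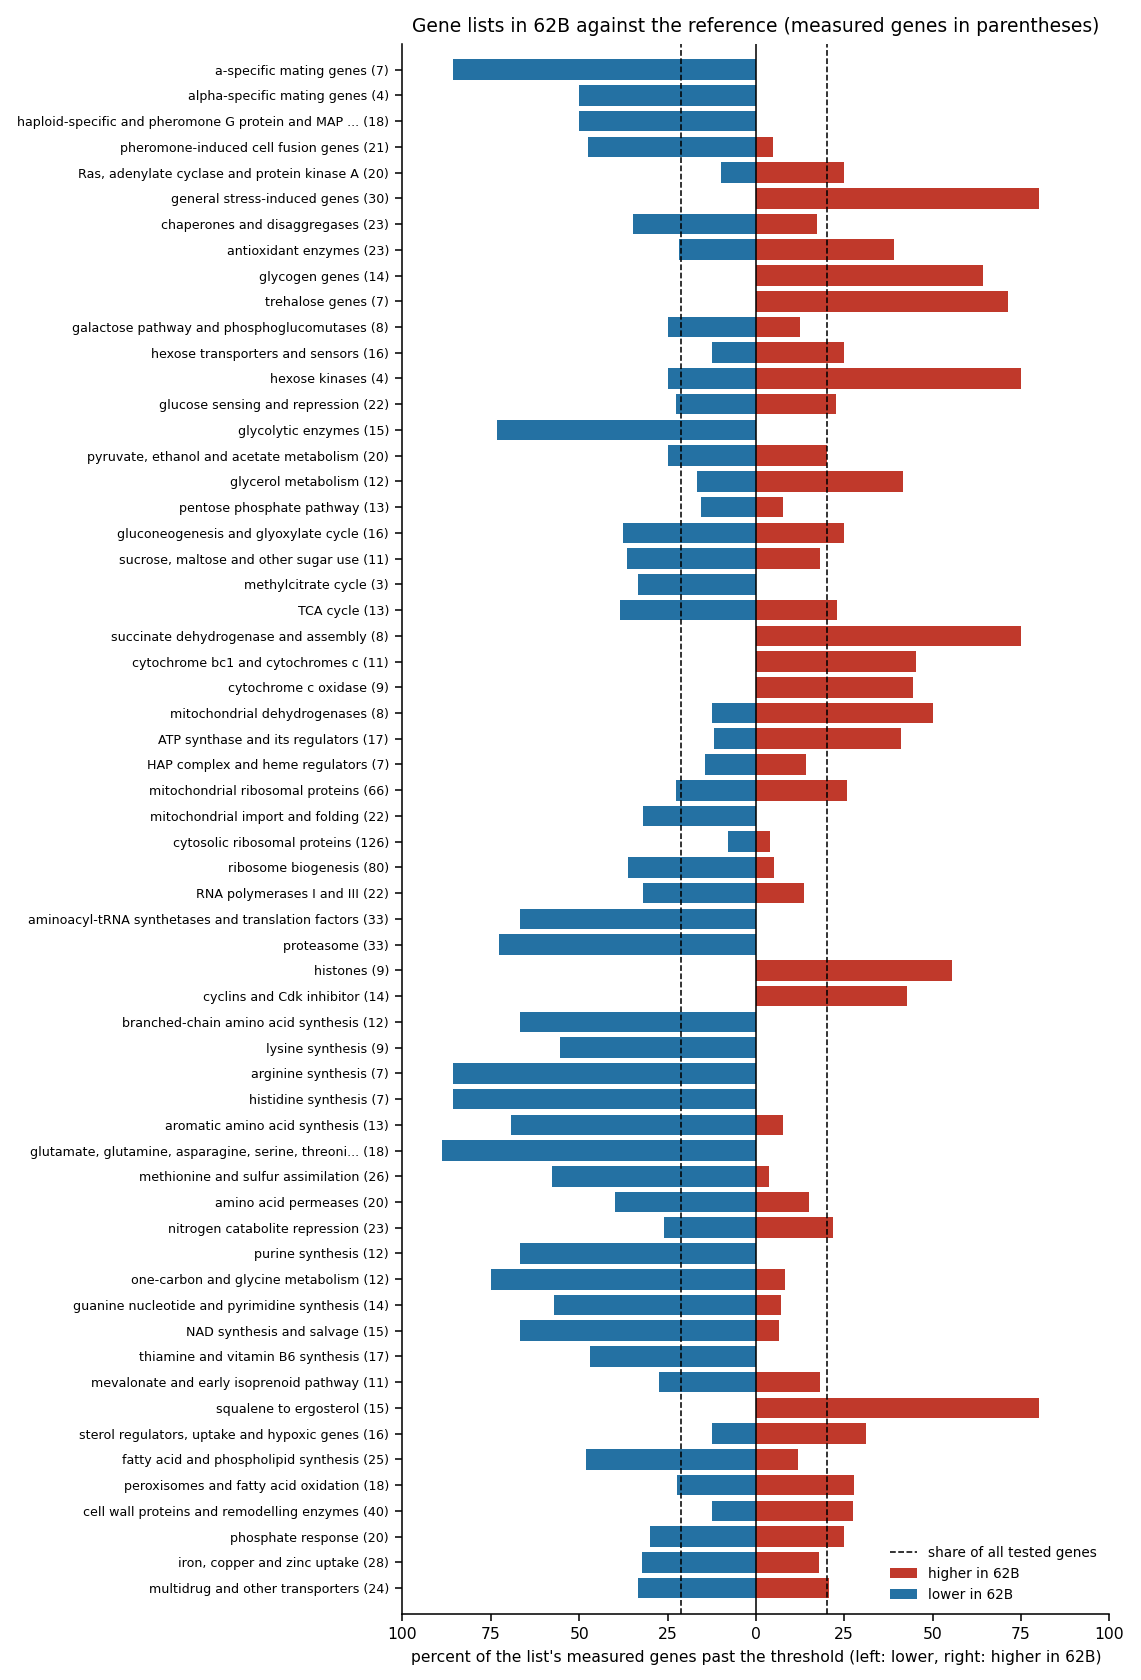
Percent of the measured genes of each list that passed the threshold in 62B against the reference, to the right where higher and to the left where lower, with the number of measured genes in parentheses. Dashed lines mark the shares of all 5449 genes (20.1% higher, 21.3% lower); stress-induced and late sterol genes reach furthest right, and synthesis of amino acids, a-specific and proteasome genes far to the left.

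Against both other evolved strains, which share the selection on galactose, 435 genes were higher in 62B (7.98%) and 340 lower (6.24%, limma adjusted p under 0.05 in both contrasts). The strains 62A and 62C had 1 array each and were assumed to vary like the pairs. Genes highest in 62B were HXT1, HPF1, ATF2, SCM4 and ERG3, already given, and 3 more. PCS60, a peroxisomal acyl-CoA synthetase, had 7.63 and 7.61 in 62B, against 6.48 in 62A and 6.55 in 62C. FMP23, a mitochondrial protein, had 6.60 and 6.53 in 62B, against 5.41 in 62A and 5.53 in 62C. RCH1, a membrane protein that restrains calcium uptake, had 6.84 and 6.83 in 62B, against 5.804 in 62A and 5.74 in 62C.

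Genes furthest below both other strains in 62B were of 2 kinds. HSP12, GPH1, HXT7, DDR2 and EGO4 were high in 62A and 62C and stood in 62B near the reference arrays: DDR2, a stress protein, had 6.75 and 6.88 in 62B, with 8.66 in 62A and 9.64 in 62C, against 6.60 and 6.36 in the reference. EGO4 had 7.72 and 7.70 in 62B, with 9.45 in 62A and 10.29 in 62C, against 7.83 and 7.22 in the reference, where its arrays overlapped with those of 62B. EGO4 did not pass against the reference, but did without the first reference array. MFA1 and FUS1 were instead low in 62B and near or above the reference in 62A and 62C, and TDH1 lay below the reference in 62B and above it in 62A and 62C.

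Of the 22 genes at least 2-fold lower than the reference in 62B, 17 were also lower than in both 62A and 62C. Of the 19 genes at least 2-fold higher, 7 were higher than in both, and 7 were lower than in both. The counts against both strains depended on single arrays: without a 62B array 160 or 164 genes were higher and 155 or 180 lower, and without either reference array, which enters only through the spread, 768 were higher and 528 lower. With a change beyond 0.25 demanded, 61 were higher and 94 lower.

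**Figure D5:**
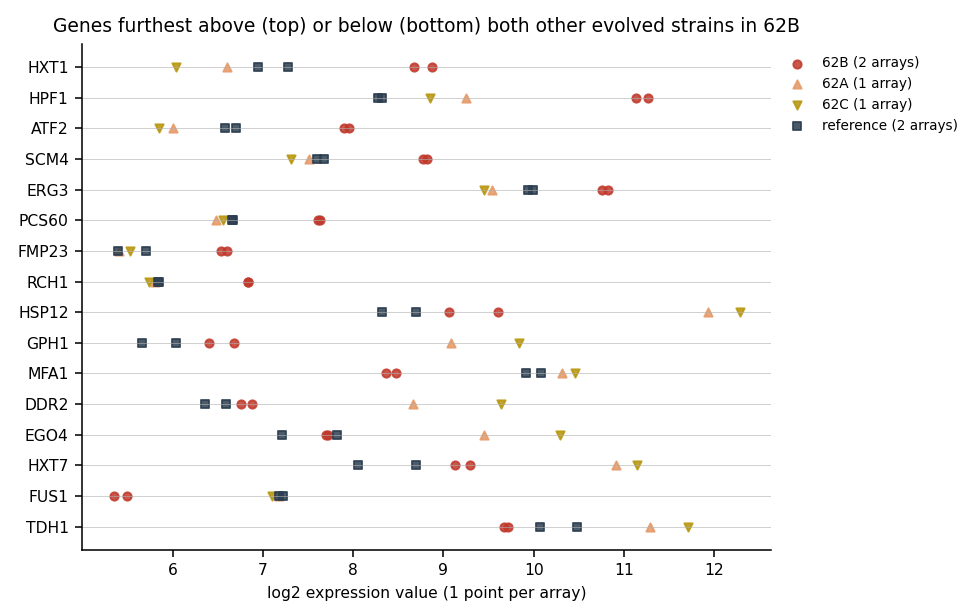
Log2 expression value on each array (horizontal axis, 1 point per array) of the 8 genes furthest above and the 8 furthest below both 62A and 62C in 62B. HXT1 is highest on the 62B arrays (8.87 and 8.68), and for HSP12 the 62B arrays (9.06 and 9.60) lie near the reference arrays.

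The changes were spread over all 16 chromosomes. Chromosome medians lay between −0.0523 for chromosome VI, where 13.7% of 117 genes were higher and 29.9% lower, and 0.0173 for chromosome XIII. Of the 320 genes that are the outermost 10 tested of each arm, 10.9% were higher and 32.2% lower, with a median of −0.057, against 20.6% higher and 20.6% lower among the other 5129. Without probe sets that can hybridise to relatives, 12.3% of 269 were higher and 28.3% lower.

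Of 5264 pairs of adjacent tested genes, 7 pairs moved together by at least 0.5 on the log2 scale with both genes past the threshold, and 5 of the 7 are divergent, with the genes pointing away from each other, as 1368 of the 5264 pairs are. Across all 5264 pairs, which are pairs of genes and not replicates, the changes of neighbours correlated with a Pearson r of 0.023. On chromosome II ZTA1 (1.09) and FMP23 (1.02) are such neighbours. On chromosome XIII RCH1 (0.99) lies beside IMP2, a subunit of the mitochondrial inner membrane peptidase (0.99), which had 7.29 and 7.29 in 62B, with 6.45 in 62A and 6.48 in 62C, against 6.23 and 6.36 in the reference. For RCH1 and IMP2 the 62B arrays lay above all other arrays. On chromosome XV the tandem genes BDS1 (−0.63), YOL163W (−0.60) and YOL162W (−0.73) fell together. IMP2, BDS1, YOL163W and YOL162W were picked after their values were seen.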

How the data were processed

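Biotin-labelled total RNA was hybridised to Affymetrix Yeast Genome 2.0 arrays, 6 in all. The deposited log2 values were made by the authors, who used RMA and affy per the submitters' processing notes. Their versions, the genome build and which arrays were normalized together are not stated in those sources. In all 0 value columns were left unused. Of 10928 probe sets, 5498 named 1 S. cerevisiae gene; 1746 belonged to another species, 1 named several genes and 3683 none. Symbols were updated through RefSeq's gene table (12 changed), which also gave neighbours and chromosomes. For 47 genes with several probe sets the one with the highest mean was kept, leaving 5449 genes, 109 of them with probe sets that can hybridise to relatives.

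Genes were tested in R 4.3.3 with limma 3.58.1 (functions lmFit, eBayes and treat, 1 term per strain over the 6 arrays, 2 residual degrees of freedom, Benjamini-Hochberg over all genes, threshold 0.05); ± is the standard error. The number of arrays limits the precision. The fit was tested on simulated data: of 67, 67 and 66 genes changed by 0.5, 1 and 2 on the log2 scale, 100% were recovered at each size, with 20 false calls in the whole run. The simulation drew independent normal noise with the fitted spread and changed no gene by less than 0.5. Of the real calls 87.8% were smaller than that, so the simulation cannot tell how reliable those are.

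The 60 gene lists (1172 different measured genes) and the rules were chosen with earlier results of these data known. Named were the 16 largest changes in each direction (arrays separate, above background), the 8 furthest from both 62A and 62C in each direction, up to 3 rises and 3 falls per list, lists of at most 10 genes in full, and galactose, Ras and mating type genes; the text gives part of these. Lists are described by counts and medians. Alternatives changed the normalization, filters, probe set rule, variance model, call rule, arrays, and the replicate number as a block. Promoter sequences were not analysed here.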

Additional observations from a re-analysis of the deposited data

Results flagged for a closer look

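The difference of 62B from both other evolved strains was tested with limma (adjusted p from 3.5e-07 to 0.00042 over the 16 genes named here). Values are the smaller of 62B minus 62A and 62B minus 62C on the log2 scale. Higher in 62B were HXT1 (2.17), HPF1 (1.95), ATF2 (1.92), SCM4 (1.29), ERG3 (1.25), PCS60 (1.07), FMP23 (1.04) and RCH1 (1.03). Lower were HSP12 (−2.60), GPH1 (−2.54), MFA1 (−1.89), DDR2 (−1.85), EGO4 (−1.73), HXT7 (−1.70), FUS1 (−1.68) and TDH1 (−1.60). The 62A and 62C values rest on 1 array each.

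The 3517 probe sets with no gene name in the annotation were fitted and adjusted together with the 5449 tested genes. Of these 3517, 73 were higher and 32 lower in 62B than in the reference, 3 of them by at least 2-fold. Probe set 1773061_s_at had 9.94 and 9.99 in 62B, with 7.90 in 62A and 7.52 in 62C, against 7.14 and 7.15 in the reference (log2 change 2.82 ± 0.03). Probe set 1771288_at was higher by 1.02 and probe set 1778878_s_at had a change of −1.005. The control probe set for 5.8S rRNA, outside the tested genes, had 10.24 and 10.31 in 62B, with 9.36 in 62A and 8.96 in 62C, against 9.17 and 9.66 in the reference, which is 0.859 higher in 62B; it was not tested.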

How the results depend on the processing

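Of 148 genes named, at least 147 kept direction and side of the threshold under each other normalization, filter, probe set rule and variance model, except that without cross-hybridising probe sets 143 had a value and all 143 kept theirs. Under quantile normalization GAL2, which did not pass, was at 0.0257. Demanding a change beyond 0.25 (limma treat) left 210 genes higher and 172 lower than the reference, and 61 higher and 94 lower than both 62A and 62C, since it asks for larger changes, and 23 of the named calls were lost. Across genes, the difference between the 62B arrays and that between the reference arrays correlated at −0.0595. This single value cannot tell whether arrays of the same replicate number share a batch. With the replicate number as a block 1206 genes rose and 1322 fell, with 19 and 22 by at least 2-fold. The block changed the call of 1 named gene, GAL1, which then passed (0.2075, limma adjusted p = 0.018). Leaving out 1 array at a time gave 589 to 1253 genes higher and 596 to 1523 lower than the reference, 18 to 29 higher and 20 to 24 lower by at least 2-fold, and 160 to 768 higher and 155 to 528 lower than both other strains. Without a 62B array that strain rests on 1 array, assumed to vary like the others. Of the 2255 calls, 56.4% and 53.6% remained without the first and the second 62B array, 93.6% and 89.9% without the first and the second reference array, and 0 changed sign in these 4 runs. Named calls lost in them were PRM10, MF(ALPHA)1 and HXK2 without either 62B array and DDR2 without the second. In the same runs 18 to 23 stress-induced genes, 9 to 12 late sterol genes, 8 or 9 glycogen genes and 5 trehalose genes rose, and 6 a-specific and 9 to 11 NAD genes fell. Calls gained were GAL1 without the first 62B array (0.4615) and EGO4 without the first reference array (0.4958). Changes that took both signs, in genes that did not pass with all arrays, were −0.0464 to 0.4615 for GAL1, −0.1248 to 0.0943 for GAL2, −0.0399 to 0.156 for GAL7, −0.0792 to 0.0721 for PGM1, −0.0987 to 0.0399 for ASG7 and −0.114 to 0.4958 for EGO4. Signal close to background limits GAL1, GAL2, GAL3, GAL7 and GAL10. Among the alpha-specific genes it limits MF(ALPHA)1, MF(ALPHA)2 and, on the 62B arrays, STE3, while SAG1 lay higher.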
